A study of Mus musculus with 6 samples.

Results

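The interleukin 1 family is a set of inflammatory cytokines, with receptors and inhibitors of their own, and is represented here by 10 genes: the ligands Il1a, Il1b, Il18 and Il33, the inhibitors Il1rn and Il1r2, and the receptor chains Il1r1, Il1rap, Il1rl1 and Il1rl2. A gene was taken through the probe sets that carry its symbol and no other, and where there were several the brightest, by its mean over the 6 arrays, was kept. That gave values for 9 of the 10 genes, among 22180 named genes in all. Il1rl1 was not analysed here. The RNA came from primary lung fibroblast cultures of wild-type male C57BL/6 mice aged 8 weeks. Cells were enriched from digested whole lung, grown in serum-containing medium and passaged at most 3 times. Both groups shared this genotype, and they differed in the agent that was given for 24 h: 3 wells received vehicle, and 3 wells received purmorphamine at a dose written as 5um, taken here to be 5 µM. Purmorphamine is a synthetic agonist of Smoothened, a membrane protein that passes Hedgehog signals on. Each well gave 1 Affymetrix array. The labels do not say how many mice or cell pools were used. The p-values reflect variation between wells, which may be technical only and may hold no variation between mice.

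Interleukin-1 alpha and interleukin-1 beta bind the receptor chain encoded by Il1r1, which then recruits the accessory chain encoded by Il1rap and signals through MyD88 and IRAK kinases to NF-kB. The accessory chain also serves the receptors for interleukin-33, Il1rl1, and for the interleukin-36 cytokines, Il1rl2. Interleukin-1 beta and interleukin-18 are made as inactive precursors that caspase-1 cleaves inside inflammasomes, whereas the interleukin-1 alpha precursor is already active. In lung, macrophages and stressed epithelium are known sources of interleukin-1, and fibroblasts respond to it with chemokines, matrix proteases and prostaglandin synthesis.

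The cultures held transcripts of more than fibroblasts, which bears on every value below. The median log2 signal of an array was 6.34 to 6.39. All 9 fibroblast markers measured and all 10 macrophage markers measured lay above the array median on at least 1 array. The fibroblast marker Lum, with a vehicle mean of 6.01, did so on the purmorphamine arrays only. Among the brightest were the collagen genes Col1a1 and Col1a2, with vehicle means of 12.77 and 11.76, and the macrophage genes Lyz2 and Cd68, with 13.96 and 13.21. The linear signals of the fibroblast markers summed to between 13.99 and 14.03 (log2) on the vehicle arrays and between 14.39 and 14.48 on the purmorphamine arrays, and 8 of these genes rose and 1, Thy1, fell. The macrophage sum was 15.91 to 15.92 with vehicle and 15.79 to 15.84 with purmorphamine, and 1 of the genes rose and 4 fell. In these sums of linear signals the brightest genes weigh most, Col1a1 and Col1a2 for fibroblasts and Lyz2 and Cd68 for macrophages. Changes of dimmer markers show less in them. Of the epithelial markers 1 of 6 rose and 0 fell, and of the endothelial markers 2 of 5 rose and 0 fell, beside 14.3% of all named genes called in either direction. Differences were negative for 5 of the 6 epithelial markers and 1 of the 5 endothelial markers. Under the array median on all 6 arrays were 1 epithelial and 0 endothelial markers. The epithelial sum was 12.01 to 12.05 with vehicle and 12.05 to 12.06 with purmorphamine. The endothelial sum was 11.77 to 11.89 with vehicle and 11.96 to 12.03 with purmorphamine. Markers of mast cells (6 of 7), neutrophils (5 of 7) and lymphoid cells (3 of 6) were in part under the array median on all 6 arrays. The mast cell sum was 7.76 to 7.84 with vehicle and 7.95 to 8.06 with purmorphamine. Kit, the brightest of the 7 (vehicle mean 6.71) and so the largest part of the sum, rose, and the others were not called. Differences were positive for 5 of the 7 and negative for Cpa3 (-0.26) and Fcer1a (-0.23). The neutrophil sum was 8.83 to 9.0 with vehicle and 8.92 to 8.98 with purmorphamine. Csf3r rose, while 4 of the 7 neutrophil markers had negative differences that were not called. Of these, S100a8, at -0.38 (limma adjusted p = 0.061), had groups that did not overlap. The lymphoid sum was 9.43 to 9.51 with vehicle and 9.30 to 9.42 with purmorphamine, with a fall of Thy1, which is also a fibroblast marker. In such whole cultures, fewer cells of a type and less RNA per cell cannot be told apart. The part of these shifts in the results below was not tested.

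Setting purmorphamine against vehicle asks which genes of this cytokine system responded to a Hedgehog agonist. Both interleukin-1 ligand genes rose, Il1a by 2.45-fold and Il1b by 1.36-fold. Their signalling receptor gene Il1r1 rose by 1.32-fold, and the accessory chain gene Il1rap fell, to a level 1.20-fold lower. Il1rl2 rose by 1.18-fold, and neither inhibitor gene, Il1rn or Il1r2, passed the test. In numbers, 4 of the 9 genes measured rose and 1 fell (limma, Benjamini-Hochberg adjusted p under 0.05 over all named genes), against 7.18% of all named genes that rose, 7.16% that fell and 14.3% that were called in either direction. The median difference of the 9 genes was 0.12 on the log2 scale, beside -0.01 over all named genes. With a fold of at least 1.5 required as well, Il1a was the 1 gene of the 9 that was called, where 2.37% of all named genes were. Leaving out 1 array, which leaves fewer samples, 2 to 4 of the 9 genes were called: 2 without purmorphamine replicate 1, and 3 each without vehicle replicate 1 or 2 or purmorphamine replicate 2 or 3.

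**Figure D1:**
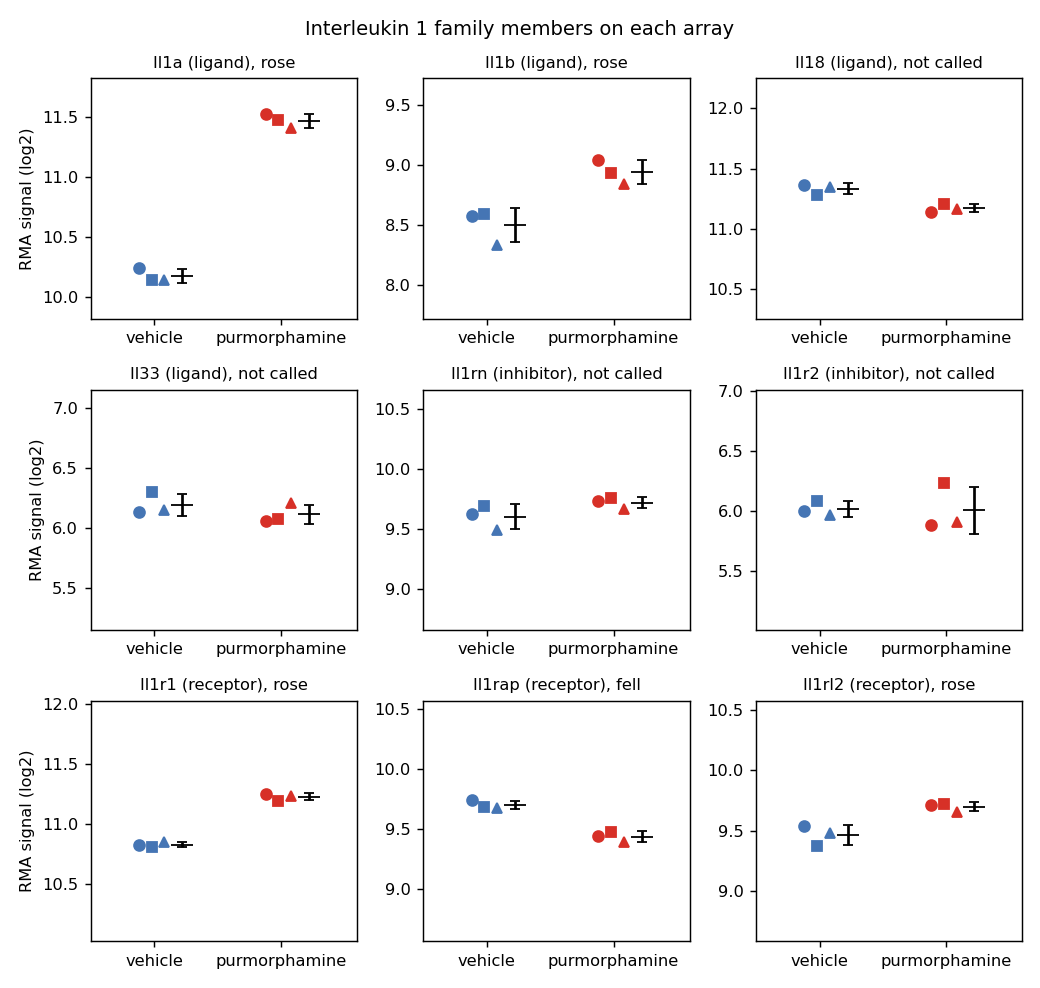
RMA signal (log2) of the 9 genes on each array, by group, with replicates 1, 2 and 3 as circle, square and triangle, and the mean with its standard deviation (n = 3) as a black bar. Every panel spans 2 log2 units. The Il1a groups lie 1.29 apart, further than in any other panel, while the groups of Il33, Il1rn and Il1r2 overlap.

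Il1a, which encodes interleukin-1 alpha, read 10.24, 10.14 and 10.14 (log2 RMA signal) on vehicle replicates 1 to 3 and 11.52, 11.47 and 11.41 on purmorphamine replicates 1 to 3. The groups lay far apart, with a gap many times the spread inside either one. The mean went from 10.18 ± 0.06 to 11.47 ± 0.06 (SD, n = 3), a rise of 1.29 log2 units (SE 0.06, 95% interval 1.16 to 1.43, limma adjusted p = 6.70e-05). Among all 22180 named genes this was rank 13 by size of rise and rank 28 by p. The call held with each of the 6 arrays left out in turn, with adjusted p from 6.29e-04 to 0.0011.

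Il1b, which encodes interleukin-1 beta, read 8.58, 8.59 and 8.33 with vehicle and 9.04, 8.94 and 8.84 with purmorphamine. The groups did not overlap, although vehicle replicate 3 lay well below the other vehicle arrays. The rise was 0.44 (SE 0.09, 95% interval 0.23 to 0.65, limma adjusted p = 0.019), and the call was lost without purmorphamine replicate 1 (adjusted p = 0.065) or purmorphamine replicate 2 (0.058). Il1a thus moved further than Il1b on the same arrays. Taken as the Il1a minus Il1b signal of each array and set to 0 at the vehicle mean, this quantity was -0.01, -0.12 and 0.13 with vehicle and 0.81, 0.86 and 0.89 with purmorphamine. The change of 0.85 had an exact two-sided permutation p of 0.1, the smallest that 3 arrays against 3 allow. This pair of genes was chosen after its values were seen. The gap between the Il1a groups exceeded the whole range of Il1b over all arrays. That p was thus fixed by the Il1a rise and adds nothing to it.

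Il1a and Il1b are immediate neighbours on mouse chromosome 2, with no protein-coding gene between them in the RefSeq table of assembly GRCm38.p6. Because both rose, the 250 bases before each annotated start are shown for a side-by-side reading, from RefSeq on GRCm38.p6, 5′ to 3′ on the minus strand on which both genes lie. The Il1a stretch is chr2:129309973-129310222 and the Il1b stretch is chr2:129371140-129371389. Capitals mark matches to any of 4 motifs searched on both strands, which are TATAAA for the TATA box, TGANTCA for AP-1, TTNNGNAA for C/EBP, and, for NF-kB, GGG and CC with any 5 bases between them.
Il1a: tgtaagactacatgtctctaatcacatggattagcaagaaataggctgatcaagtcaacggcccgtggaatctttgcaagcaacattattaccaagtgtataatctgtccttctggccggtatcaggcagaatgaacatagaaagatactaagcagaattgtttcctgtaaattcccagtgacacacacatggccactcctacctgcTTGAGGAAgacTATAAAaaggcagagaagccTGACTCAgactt
Il1b: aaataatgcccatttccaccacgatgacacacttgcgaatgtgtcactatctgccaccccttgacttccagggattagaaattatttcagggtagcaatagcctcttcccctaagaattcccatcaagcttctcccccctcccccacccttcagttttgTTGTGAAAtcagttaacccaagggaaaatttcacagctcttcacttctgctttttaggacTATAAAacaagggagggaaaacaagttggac
Both stretches hold TATAAA on the gene's own strand at nearly the same distance from the start, from base 32 to base 27 upstream in Il1a and from base 31 to base 26 upstream in Il1b. Each also holds a match to TTNNGNAA, and Il1a alone of these stretches holds TGACTCA, a match to TGANTCA that ends 6 bases before the start. No match to the NF-kB motif lies in either window, and no 2 matches overlapped. Of 32851 mouse promoter windows of the same length, 12.4% hold TATAAA, 45.8% the NF-kB motif, 6.75% TGANTCA and 36.8% TTNNGNAA on either strand. These matches describe the letters and are not shown to be binding sites.

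Il18 encodes interleukin-18, a caspase-1 substrate that acts through a receptor pair of its own. It read 11.37, 11.28 and 11.35 with vehicle and 11.14, 11.20 and 11.16 with purmorphamine. All purmorphamine arrays lay below all vehicle arrays, as for 17.1% of all named genes, but the difference of -0.16 (SE 0.05) did not pass the test over all genes (limma adjusted p = 0.089), although its own 95% interval of -0.28 to -0.04 leaves out 0. Its call depended on the setting, with adjusted p from 0.0066 to 0.224 over the alternatives. It was called with a linear offset of 50 (adjusted p = 0.022), without the dimmest genes (0.036) and with a variance trend and robust fit (0.0066).

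Il33, which encodes the epithelial and stromal alarmin interleukin-33, was dim, under the median of every array. Its signals were 6.13, 6.30 and 6.14 with vehicle and 6.06, 6.07 and 6.21 with purmorphamine, and the groups overlapped. The difference was -0.08 (95% interval -0.25 to 0.09, limma adjusted p = 0.54). Changes of dim genes are compressed by the array's background, so the interval describes the array signal, and the transcript itself may have changed by more.

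Il1rn encodes the interleukin-1 receptor antagonist, which occupies the receptor without signalling. It read 9.63, 9.69 and 9.49 with vehicle and 9.74, 9.76 and 9.67 with purmorphamine. The lowest purmorphamine array lay below the highest vehicle array, and the difference of 0.12 (95% interval -0.04 to 0.28) did not pass the test (limma adjusted p = 0.31). A rise of 1.5-fold, or 0.58 in log2 terms, lies above that interval. Set against Il1a within each array, with the vehicle mean at 0, Il1a minus Il1rn was 0.04, -0.12 and 0.08 with vehicle and 1.22, 1.14 and 1.17 with purmorphamine. The ligand and antagonist signals therefore moved apart by 1.17 (exact two-sided permutation p = 0.1, the smallest possible, and again a pair chosen after its values were seen). Here too the gap between the Il1a groups exceeded the whole range of the second gene, Il1rn. The p was thus fixed by the Il1a rise and adds nothing to it.

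Il1r2 encodes a decoy receptor that binds interleukin-1 and does not signal. It too was dim, at 6.00, 6.09 and 5.97 with vehicle and 5.88, 6.23 and 5.91 with purmorphamine. The purmorphamine arrays enclosed the vehicle arrays, with purmorphamine replicate 2 the highest of all 6. The difference was -0.01 (95% interval -0.25 to 0.23, limma adjusted p = 0.96), within the spread of either group.

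Il1r1, the ligand-binding chain, read 10.83, 10.81 and 10.85 with vehicle and 11.25, 11.19 and 11.24 with purmorphamine. These groups were the tightest of the 9 genes, with standard deviations of 0.02 and 0.03, and they did not overlap. The rise of 0.40 (SE 0.05, 95% interval 0.28 to 0.51, limma adjusted p = 0.0026) held with each array left out, with adjusted p from 0.010 to 0.015.

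Il1rap, the accessory chain, read 9.74, 9.69 and 9.67 with vehicle and 9.44, 9.48 and 9.39 with purmorphamine. Every purmorphamine array lay below every vehicle array. The fall of 0.26 on the log2 scale (SE 0.05, limma adjusted p = 0.018) came from the brightest of 3 probe sets. The other two were dim, at means of 4.02 and 4.89, with differences of 0.02 and -0.15, and the mean over the 3 probe sets differed by -0.13 and was not called (adjusted p = 0.30). With 1 array left out the call was lost in 4 of 6 cases, namely without vehicle replicate 1 or 2 or purmorphamine replicate 1 or 3 (adjusted p between 0.055 and 0.064). The 2 chains of the interleukin-1 receptor thus differed in direction: Il1r1 minus Il1rap, with the vehicle mean at 0, was -0.04, -0.01 and 0.05 with vehicle and 0.68, 0.59 and 0.72 with purmorphamine. That change of 0.66 had an exact two-sided permutation p of 0.1, the smallest possible. As Il1r1 rose and Il1rap fell without overlap, this p was fixed in advance and adds nothing to those results.

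Il1rl2, the receptor chain for interleukin-36, read 9.53, 9.37 and 9.48 with vehicle and 9.72, 9.72 and 9.66 with purmorphamine. The groups did not overlap, with a narrow gap between vehicle replicate 1 and purmorphamine replicate 3. The rise of 0.24 (SE 0.06, 95% interval 0.09 to 0.38) was just past the threshold (limma adjusted p = 0.043). It was lost whichever array was left out (adjusted p between 0.057 and 0.126) and after centring each array on its median (0.058).

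**Figure D2:**
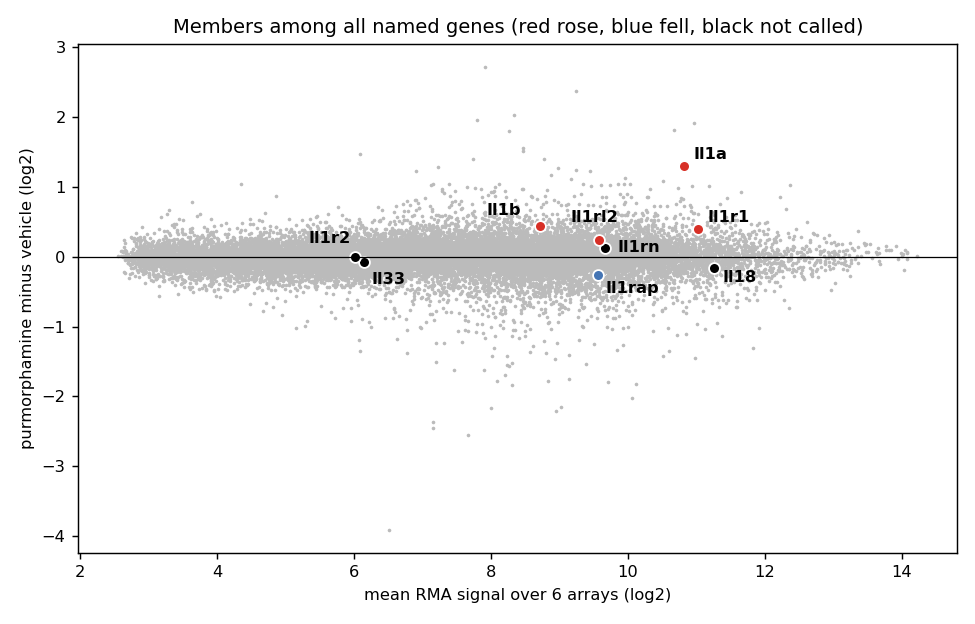
Difference between purmorphamine and vehicle (log2) against mean RMA signal over 6 arrays (log2), with 1 grey point for each of 22180 named genes and the 9 genes marked (red rose, blue fell, black not called). Il1a stands near the upper edge of the cloud at 1.29, while Il1r2 and Il33, at mean signals of 6.01 and 6.15, lie near 0.

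In all, 6 of the 9 genes had groups that did not overlap, 4 with purmorphamine above and 2 below, where 34.2% of all named genes had such groups, 17.1% in each direction. Each of the 5 called genes was among these 6, and Il18 was the other. Il1r2, Il1r1 and Il1rl2 lie next to each other on chromosome 1, followed by Il1rl1, Il18r1 and Il18rap, with no other protein-coding gene in between. Along this row the differences were -0.01 for Il1r2, 0.40 for Il1r1, 0.24 for Il1rl2, 0.21 for Il18r1 and -0.08 for Il18rap. Il1r1 and Il1rl2 were the calls there. Il18r1, the binding chain for interleukin-18, missed the test (limma adjusted p = 0.056) with groups that did not overlap. It was called in 7 of the alternatives, 1 of which only loosened the threshold to an adjusted p under 0.1. Among the 7 were quantile normalization (0.049) and the fit without purmorphamine replicate 3 (0.046). Over all alternatives its adjusted p lay between 0.021 and 0.164.

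No other ligand or receptor of the family was called, and with 14.3% of all named genes called, lists this short would hold few calls. Of 6 other ligands and soluble regulators 0 rose and 0 fell, with a median of 0.01, and 0 of them had an unadjusted p under 0.05 in limma. The interleukin-36 genes and relatives Il1f5, Il1f6, Il1f8, Il1f9 and Il1f10, which lie beside Il1rn on chromosome 2, were dim, with vehicle means from 4.12 to 5.68. The interleukin-18 binding protein gene Il18bp was brighter, with a purmorphamine mean of 7.45 ± 0.06 (SD, n = 3), and differed by 0.05 (limma adjusted p = 0.75). Of 5 other receptor genes 0 were called, with a median of -0.05, and Il18r1 was the 1 with an unadjusted p under 0.05. The remaining 4 were Sigirr, an inhibitory relative, with a difference of -0.05, Il18rap, the accessory chain for interleukin-18, with -0.08, and the neuronal relatives Il1rapl1 and Il1rapl2 with -0.10 and 0.07. All 4 overlapped between groups.

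**Figure D3:**
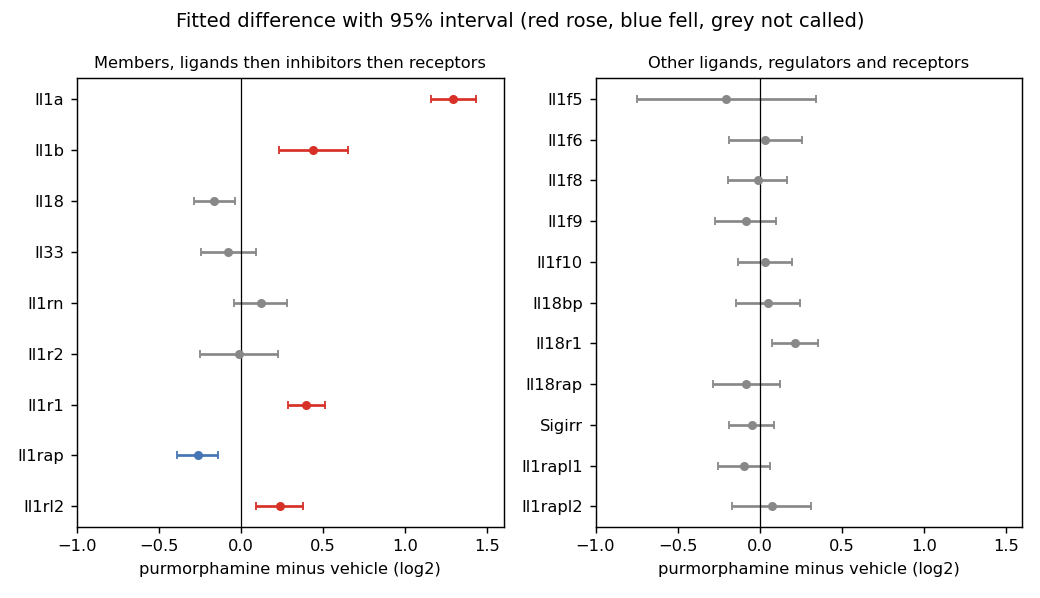
Fitted difference between purmorphamine and vehicle (log2, points) with its 95% interval (bars, not adjusted for multiple tests) for the 9 genes on the left and 11 other ligands, regulators and receptors on the right. The intervals of Il1a, from 1.16 to 1.43, and Il1r1, from 0.28 to 0.51, lie well above 0, and on the right all points are grey.

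Genes of inflammasomes and cytokine processing fell more often than they rose. Of 13 measured, 1 rose and 7 fell, with a median of -0.28, where 7.18% of all named genes rose and 7.16% fell. The inflammasome adaptor gene Pycard, which encodes ASC, read 8.85 ± 0.05 with vehicle and 8.27 ± 0.04 with purmorphamine (SD, n = 3), a fall of 0.58 (limma adjusted p = 8.75e-04). Casp1, the protease that matures interleukin-1 beta and interleukin-18, went from 9.75 ± 0.05 to 9.32 ± 0.12, a fall of 0.43 (adjusted p = 0.0088). The sensor genes Nlrp1a, Nlrp3 and Nlrc4 fell by 0.68, 0.31 and 0.28, although Nlrp1a was dim in both groups (4.82 and 4.14). P2rx7, the ATP-gated channel that triggers NLRP3, fell by 0.35, and Capn2, a calpain of the family that cleaves the interleukin-1 alpha precursor, fell by 0.27. The 1 rise was that of Casp4, which encodes the lipopolysaccharide-sensing caspase-11 of mice, from 7.67 ± 0.06 to 8.19 ± 0.06, a rise of 0.52 (limma adjusted p = 0.0020). Among members not called, Nlrp1b differed by -0.29, Casp8 by -0.10, Nek7 by 0.10 and Aim2 by 0.08. With 1 array left out, 5 to 7 of the 13 genes were called, 5 of them without vehicle replicate 3 or purmorphamine replicate 3. The 7 calls came without purmorphamine replicate 2 and included Nlrp1b, newly called there (limma adjusted p = 0.023). Nlrc4 was lost in all 6 cases and Nlrp3 in 5, Capn2 without vehicle replicate 3 or purmorphamine replicate 3, and P2rx7 without purmorphamine replicate 1, at adjusted p between 0.051 and 0.127. Calls of Pycard, Casp1, Casp4 and Nlrp1a held in all 6 cases. Beside these falls, the macrophage markers Itgam, Mrc1, Csf1r and Adgre1 fell by 1.46, 0.62, 0.63 and 0.38, and Itgax rose by 0.31. The other macrophage markers, Marco, Cd68, Ptprc, Lyz2 and Fcer1g, had differences of 0.20, 0.13, 0.07, 0.05 and -0.17 that missed the threshold. The part of these in the inflammasome result was not tested.

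Of 14 signalling genes next to the receptor, 0 rose and 1 fell, with a median difference of 0.04. With 14.3% of all named genes called, a list this short would hold few calls. Groups did not overlap in 7 of the 14, against 34.2% of all named genes. The fall was that of Ube2n, a ubiquitin-conjugating enzyme that works with Traf6, by 0.31 (limma adjusted p = 0.012), and it held with each array left out. The adaptor gene Myd88 differed by -0.18 (95% interval -0.36 to 0.003), Irak2 by 0.15, the inhibitory kinase gene Irak3 by 0.13 and Ikbkg, which encodes the NEMO subunit of the IkB kinase, by 0.22 (limma adjusted p = 0.058). With a variance trend and robust fit, 3 of these rose, namely Ikbkg, Irak2 and Irak3.

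Genes known to respond to interleukin-1 moved in both directions. Of 22 measured, 10 rose and 4 fell, with a median of 0.13, where 14.3% of all named genes were called. The stromelysin gene Mmp3 read 7.98 ± 0.06 with vehicle and 8.95 ± 0.15 with purmorphamine (SD, n = 3), a rise of 0.97 (limma adjusted p = 6.91e-04), and the acute phase gene Saa3 rose by 0.72. The neutrophil chemokine genes Cxcl1 and Cxcl2 rose by 0.47 and 0.44, and the iron-binding lipocalin gene Lcn2 by 0.47. Ptges, the prostaglandin E synthase, rose by 0.45 (limma adjusted p = 0.0033), whereas Ptgs2, the cyclooxygenase before it, had a difference of -0.10 that missed the threshold. The NF-kB feedback genes Nfkbiz and Tnfaip3 rose by 0.44 and 0.33, beside Vcam1, an adhesion molecule (0.37), and the collagenase gene Mmp13 (0.26). Falls were those of the chemokine genes Ccl7 (0.53), Cxcl5 (0.36) and Ccl2 (0.34) and of Csf3, the granulocyte colony-stimulating factor (0.42). Il6, a classical interleukin-1 target of fibroblasts, differed by -0.22 (95% interval -0.43 to 0.0001, limma adjusted p = 0.18), and Icam1 and Zc3h12a by -0.09 and 0.10. With a variance trend and robust fit, 10 of the 22 genes rose and 6 fell, the added falls being those of Il6 and Ptgs2. With 1 array left out, 11 or 12 of the 22 genes were called. Cxcl5 was lost in 5 cases (adjusted p from 0.055 to 0.076) and kept without purmorphamine replicate 2. Csf3 was lost without vehicle replicate 2 or 3 or purmorphamine replicate 1 or 2, Cxcl2 without vehicle replicate 1 or purmorphamine replicate 2, and Tnfaip3 without purmorphamine replicate 2 or 3, at adjusted p between 0.051 and 0.061. The fibroblast marker sum rose in the same wells, from at most 14.03 to at least 14.39, and its part in the rises of Mmp3, Mmp13 and Vcam1 was not tested.

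**Figure D4:**
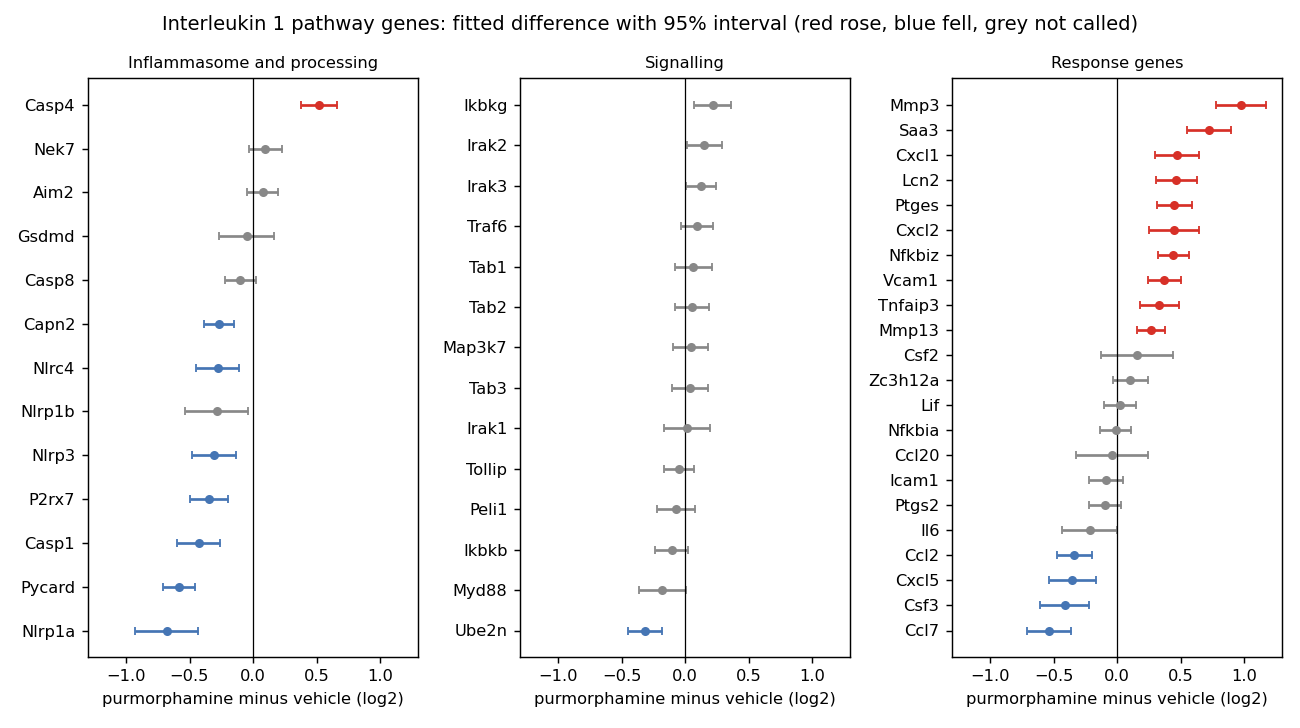
Fitted difference between purmorphamine and vehicle (log2, points) with its 95% interval (bars, not adjusted) for 13 inflammasome and processing genes, 14 signalling genes and 22 response genes, each sorted by difference (red rose, blue fell, grey not called). The left panel holds 7 blue points and Casp4 in red at 0.52, the middle panel 1 blue point, and the right panel 10 red and 4 blue points.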

How the data were processed

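RNA of 6 wells was measured on Affymetrix arrays. The deposited table holds log2 values for each probe set on each array, which the authors made with oligo and RMA per the submitters' processing notes (versions: not given in the sources used here). RMA equalises the arrays' distributions, which hides any shift shared by all genes. Genes were named from the platform annotation: of 41345 probe sets, 23521 had 1 symbol, 1814 had several and 16010 had none there. For the 1082 genes with several probe sets, the one with the highest mean was kept. Purmorphamine minus vehicle was fitted for 22180 genes with lmFit and eBayes of limma 3.58.1 (R 4.3.3), without a block or a filter, and steps were tested on simulated data. The number of arrays limits precision (median SE 0.07). The text names all 10 family genes, every called gene of the pathway lists with at most 4 others of smallest p (further ones were added after their values were seen), and the brightest markers. Members and lists were chosen with earlier results of these data known. Alternatives were other scalings, an offset of 50 on the linear scale, omission of the dimmest genes (a share of 0.333), other probe set rules, eBayes settings, array weights, the replicate block, each array left out, and other thresholds. Promoter windows came from RefSeq, GRCm38.p6. Python 3.11.15 and matplotlib 3.10.9 drew the plots.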

Additional observations from a re-analysis of the deposited data

How the results depend on the processing

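The number of all named genes called was 3181. It was 4456 with a linear offset of 50, 4342 without the dimmest genes, 4554 at an adjusted p under 0.1 and 4697 under a robust fit with a variance trend. With 1 array left out it was 1967 to 2374: 1967 and 2065 when purmorphamine replicate 1 or 3 was omitted, and 2034 and 2110 when vehicle replicate 2 or 3 was. With a fold of at least 1.5 added, 525 of all named genes, 1 of the 9 family genes and 3 of the 60 other pathway genes were called. The 9 family genes gave 2 to 4 calls with 1 array left out, and the other pathway genes 18 to 19, against 23. With the replicate block, calls numbered 2432 over all genes, 4 in the family and 21 in the other pathway lists. Il1rl2 (adjusted p = 0.083), Nlrp3 (0.066) and Nlrc4 (0.075) were not called there, and the inflammasome list had 6 calls. The replicate numbers are not taken as pairs: deviations of same-numbered arrays correlated at 0.106, 0.024 and 0.103, although all 6 arrays correlated best with their own number. Over 52 genes and 17 alternatives, 6 genes having no value without the dimmest genes, the call was the same in 788 of 878 cases, lost in 68 and gained in 22, and no called gene changed sign. At an adjusted p under 0.1, or with the fold of at least 1.5, the fit was unchanged and the rule alone moved the call. In the other cases the cause was not tested, beyond fewer samples or genes where arrays or genes were left out. Dim genes (Il33, Il1r2, Il1f5 to Il1f10, Nlrp1a) limit what these arrays can show.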

Other observations

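The genes whose 6 array values, centred on the gene's mean, lay closest to those of Il1a by Euclidean distance were Aldh1l2, a mitochondrial folate enzyme (distance 0.11), Pck2, the mitochondrial phosphoenolpyruvate carboxykinase (0.22), Vnn3, a pantetheinase (0.23), Serpina3n, a serine protease inhibitor (0.24), and Fabp4, a fatty acid binding protein (0.25). They rose by 1.28, 1.13, 1.28, 1.12 and 1.22 log2 units. Closest to Il1rap were Dolpp1 (distance 0.02), Tmem97 (0.03), and Cfl1, Gusb and Lbh (0.04 each), which fell by 0.24 to 0.27. Distances over 6 arrays in 2 groups mostly reflect the size of the difference between the groups, and nothing is read from them about shared function or control.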
